A study of Homo sapiens with 6 samples.

Results

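The aldo-keto reductases and glutathione transferases described here are the 10 rows of the expression table named AKR1A1, AKR1B1, AKR1B10, AKR1C1, AKR1C2, AKR1C3, GSTP1, GSTM3, MGST1 and GSTK1, of 27216 rows in all. They were taken by gene symbol, not by their values. RNA-sequencing values were compared between 3 parental and 3 adapted samples of H1975, a human line of non-small cell lung cancer (NSCLC) with mutant EGFR, although the labels give the genotype as WT. Parental samples are labelled as Osimertinib (Osi), an EGFR tyrosine kinase inhibitor, for 0 h, although their columns are named for DMSO. Adapted samples are labelled as Osi at 1000 nM for 72 h, and their RNA came from the cells that remained after apoptotic cells had been washed off, so the comparison is of survivors with untreated or DMSO-treated cells. Both groups are cultures of 1 cell line, and the labels also describe digestion with RNase R, an enzyme that removes linear RNA, before library preparation. In such bulk samples, fewer cells that carry a transcript and less of it per cell cannot be told apart.

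Aldo-keto reductases (AKRs) are cytosolic enzymes that use NADPH to reduce aldehydes and ketones, including lipid peroxidation products, sugars, retinal, steroids and prostaglandins. Glutathione transferases (GSTs) attach glutathione to electrophilic compounds, which are then exported from the cell. Many genes of both families are known targets of NRF2, the transcription factor that answers oxidative and electrophilic stress through antioxidant response elements, and both families are studied in lung cancer for their part in drug and aldehyde metabolism. Levels are given below as FPKM, a fragment number adjusted for transcript length and for the size of the library, or as log2(FPKM + 1), the scale of all fold changes. This scale understates the change of low genes.

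The members split by gene rather than by family. In adapted cells GSTP1, GSTK1 and AKR1A1 were higher, AKR1B10, AKR1B1, GSTM3 and MGST1 were lower, AKR1C3 was spread on both sides of the parental values, and AKR1C1 and AKR1C2 were near 0 in all 6 samples. Of the 10 genes, 8 passed the filter of a mean log2(FPKM + 1) of at least 1, and 7 of these 8 were past an adjusted p of 0.05 (limma, Benjamini-Hochberg over all 12656 rows tested), where 56.9% of all rows tested were. Of the 8 tested, 3 rose and 4 fell past that adjusted p, against 30.7% and 26.2% of all rows tested. The parental and adapted values did not overlap for 7 of the 8, against 66.3% of all rows. A log2 fold change of 1 or more in either direction, with the adjusted p, was reached by 2, GSTP1 and AKR1B10, against 10.5% of all rows. Adapted replicate 1 was nearer to the parental mean than the mean of adapted replicates 2 and 3 was for 5 of the 8, against 58.9% of all rows. AKR1B10 passed the filter only through its parental level, so these counts describe the genes that passed and not all 10. The labels do not say that the 3 samples of a group came from separate cultures, so the p-values measure the spread between these samples, and 3 against 3 cannot give an exact permutation p below 0.1 for a single gene.

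**Figure D1:**
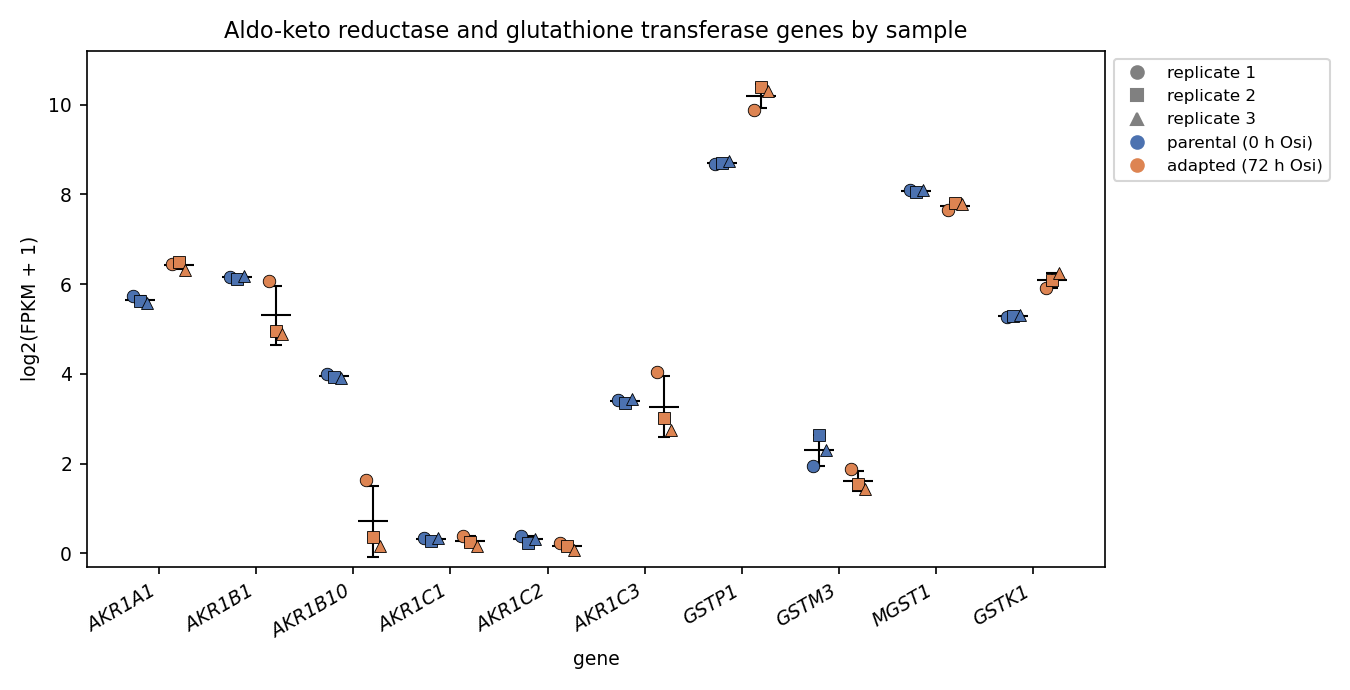
Level of each of the 10 genes in each sample as log2(FPKM + 1), with parental samples in blue, adapted samples in orange, a marker shape for each replicate number, and a bar for the mean with an error bar of 1 SD (n = 3). GSTP1, GSTK1 and AKR1A1 sit higher in the adapted samples and AKR1B10 lower, while adapted replicate 1 lies apart from adapted replicates 2 and 3 for AKR1B1, AKR1B10 and AKR1C3.

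The summed values were even, but FPKM, if that is the unit, is already adjusted for the size of the library, so this does not show equal depth. The linear values summed to between 375342 and 387753 FPKM per sample, and no read depth is known, so errors here are spreads between replicates. Parental samples correlated with one another at 0.9972 to 0.9975 across all rows. Adapted replicate 1 correlated with the other adapted samples at 0.9906 to 0.9909, whereas adapted replicates 2 and 3 correlated at 0.9961, and adapted replicate 1 was also closest to the parental samples (0.9725 to 0.9727, against 0.9632 to 0.9636 for the other two). All 10 epithelial markers examined were at a log2(FPKM + 1) of 5.05 or more in every sample. Of 14 markers of other cell types, 9 stayed below 1, and 4 of these 9 (CD3E, HBA1, HBB and ALB) were listed at 0 in all samples. Their summed level was 78.8 to 80.8 FPKM in parental and 26.9 to 39.5 FPKM in adapted samples, most of it from CD68, a lysosomal protein of macrophages. CD68 (75.0 to 21.0 FPKM) and the endothelial PECAM1 (1.35 to 0.0634) had lower means in adapted samples, while the collagens COL1A1 (3.06 to 7.86) and COL3A1 (0.00507 to 0.601) and the endothelial CDH5 (0.156 to 2.39) had higher ones. Of these, CD68 and COL1A1 passed the filter (limma log2 fold changes -1.85 and 1.12, adjusted p = 0.000363 and 7.8e-05). Their part in the results below was not tested.

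AKR1A1, the aldehyde reductase, lies on chromosome 1 from 45550543 to 45570049 (GENCODE 29, GRCh38, as all gene positions below). It measured 52.6, 48.7 and 47.1 FPKM in the parental samples and 86.6, 89.1 and 78.9 FPKM in the adapted samples. All 3 adapted values were above all parental values, and adapted replicate 1 lay between the other two. The mean FPKM was 1.72 times the parental mean, and log2(FPKM + 1) rose from 5.66 ± 0.08 to 6.42 ± 0.09 (SD, n = 3 each) (limma log2 fold change 0.77, SE 0.07, adjusted p = 0.000132). No coding window of 50 bases of AKR1A1 occurs in a transcript of another gene, and its untranslated regions were not searched.

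AKR1B1 and AKR1B10 lie on chromosome 7, AKR1B1 at 134442350 to 134459284 (minus strand) and AKR1B10 at 134527592 to 134541408 (plus strand). AKR1B1 is aldose reductase, which turns glucose to sorbitol in the first step of the polyol pathway, and AKR1B10 is a related reductase with a preference for retinal and for the aldehydes of lipid peroxidation. Their coding sequences are 75.2% identical over 948 aligned bases and share no window of 50 bases. Of the 50-base coding windows of AKR1B1, 7.23% occur in transcripts of other genes, among them AKR1B1P1 and AKR1B1P7, and none of its 100-base windows does.

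AKR1B10 showed the largest change of the 10 genes. Its levels were 15.0, 14.3 and 14 FPKM in the parental samples and 2.09, 0.282 and 0.119 FPKM in the adapted samples. Every adapted sample was far below every parental sample, and adapted replicate 1 was the highest of the adapted samples. Mean FPKM was 17.4 times lower in adapted cells (14.4 ± 0.51 against 0.83 ± 1.09, SD, n = 3 each), and 72.1 times lower without adapted replicate 1 (0.200 FPKM). The second ratio rests on adapted values near 0, so its size is uncertain. On the log2 scale AKR1B10 fell by 3.23 (SE 0.35, limma adjusted p = 0.000237), with a 95% interval of the change from -4.05 to -2.42. Of its 50-base coding windows, 28.5% occur in transcripts of other genes, chiefly its neighbour AKR1B15, and 3.53% of its 100-base windows do. AKR1B15 itself measured at most 0.16 on the log2(FPKM + 1) scale in the parental samples and was listed at 0 in all adapted samples.

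Likeness to AKR1B10 was ranked over the rows tested, without those named NewGene_ or as dates. The 3 genes that followed AKR1B10 most closely over the 6 samples were HMMR, CENPF and KIF11. Their log2 values had a Pearson r of 0.9999, 0.9998 and 0.9998 with those of AKR1B10. These correlations are a description over 6 points in 2 groups, and 394 of the ranked rows had an r above 0.99 with AKR1B10. HMMR went from 4.76, 4.77 and 4.69 to 3.23, 2.39 and 2.29 on the log2(FPKM + 1) scale.

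AKR1B1 was lower in adapted cells by a smaller step that varied among the adapted samples. It measured 70.0, 68.4 and 71.5 FPKM in the parental and 66.0, 30.3 and 28.8 FPKM in the adapted samples. Adapted replicate 1 was just under the lowest parental sample, and adapted replicates 2 and 3 were far below it. Its log2 fold change was -0.84 (SE 0.29, limma adjusted p = 0.0387). This call was lost in every fit without 1 sample (adjusted p = 0.0859 to 0.128) except the fit without adapted replicate 1, in which the fold change was -1.22 (adjusted p = 1.62e-06). With no filter on low rows it was lost as well (adjusted p = 0.0823).

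AKR1C1, AKR1C2 and AKR1C3 lie together on chromosome 10, from 4963253 to 4983283 on the plus strand, from 4987400 to 5018031 on the minus strand and from 5035354 to 5107686 on the plus strand. All are hydroxysteroid dehydrogenases: AKR1C1 inactivates progesterone, AKR1C2 inactivates dihydrotestosterone, and AKR1C3 forms testosterone from its precursor and also reduces prostaglandins. Their coding sequences, of 969 bases without the stop codon, are near copies of one another. AKR1C1 and AKR1C2 differ at 19 positions (98% identical), AKR1C1 and AKR1C3 at 83 (91.4%), and AKR1C2 and AKR1C3 at 87 (91%). Among 60-base coding stretches starting at a codon, the one in which the 3 differ most is shown, because such differences tell their reads apart. This stretch was chosen from the coding sequence only, and untranslated regions were not compared. It holds coding bases 103 to 162, within exon 2 of the GENCODE 29 transcripts, read along each gene 5′ to 3′, and capitals mark the 15 positions at which the genes are not all alike. In GRCh38 it lies at chr10:4965932-4965991 (AKR1C1, plus strand), chr10:5001604-5001663 (AKR1C2, minus strand) and chr10:5096428-5096487 (AKR1C3, plus strand).
AKR1C1: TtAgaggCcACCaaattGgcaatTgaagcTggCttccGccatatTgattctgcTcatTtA
AKR1C2: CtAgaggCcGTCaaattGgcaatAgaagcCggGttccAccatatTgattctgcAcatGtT
AKR1C3: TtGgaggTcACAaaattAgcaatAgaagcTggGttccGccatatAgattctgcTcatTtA

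Of the 50-base coding windows, 54.3% of AKR1C1, 57.1% of AKR1C2 and 23% of AKR1C3 occur in a transcript of another gene, and of the 100-base windows 20.7%, 26.4% and 9.77%. The read length and the handling of shared reads are not given in the sources used here, so the split of reads among these genes is uncertain. AKR1C1 measured 0.275, 0.221 and 0.267 FPKM in the parental and 0.31, 0.197 and 0.127 FPKM in the adapted samples. AKR1C2 measured 0.311, 0.171 and 0.256 FPKM in the parental and 0.178, 0.125 and 0.0547 FPKM in the adapted samples. Both genes were thus under 1 FPKM in every sample with overlapping groups, and neither passed the filter. In a fit without the filter, the adjusted p was 0.545 for AKR1C1 and 0.096 for AKR1C2 (limma).

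AKR1C3 was the expressed gene of the cluster. It measured 9.78, 9.15 and 9.78 FPKM in the parental and 15.4, 7.10 and 5.75 FPKM in the adapted samples. The parental values were tight, adapted replicate 1 lay above all of them and adapted replicates 2 and 3 below all of them. The log2 fold change over the 6 samples was -0.13, with a 95% interval from -0.83 to 0.56 (limma, adjusted p = 0.727). Without adapted replicate 1 AKR1C3 fell by 0.51 and was past the threshold (adjusted p = 0.00177), and without adapted replicate 3 the change turned to 0.13 (adjusted p = 0.723). The direction rests on single adapted samples. The summed level of AKR1C1, AKR1C2 and AKR1C3 was 10.4, 9.54 and 10.3 FPKM in the parental and 15.9, 7.42 and 5.93 FPKM in the adapted samples. AKR1C3 made up 94.3% to 95.9% of this sum in parental and 95.7% to 96.9% in adapted samples. The log2 difference of the sum was -0.15 (two-sided exact permutation test, p = 0.7).

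The glutathione transferase genes were led by GSTP1, the cytosolic Pi-class enzyme, on chromosome 11 from 67583595 to 67586656. It had the highest level of the 10 genes in both groups. GSTP1 measured 407, 417 and 428 FPKM in the parental and 938, 1344 and 1263 FPKM in the adapted samples. All adapted samples, including the lowest, replicate 1, were far above all parental samples. The mean was 2.83 times higher in adapted cells, and log2(FPKM + 1) rose from 8.71 ± 0.04 to 10.19 ± 0.28 (SD, n = 3 each) (limma log2 fold change 1.48, SE 0.14, adjusted p = 0.00012). No 50-base coding window of GSTP1 occurs in another gene's transcripts.

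The promoters of the members were searched for TGACNNNGC, the core letters of the antioxidant response element bound by NRF2, on both strands, in windows from 250 bases before to 50 bases after each RefSeq start (GRCh38.p14). Windows were found for 9 of the 10 genes (13 windows), the exception being AKR1B10. Of all 35116 windows, 13.3% held the motif, and of the 13 member windows 2 did, those of GSTP1 and of 1 of the 3 starts of MGST1. The GSTP1 match begins 66 bases upstream of the start and the MGST1 match 30 bases downstream of its start, in transcribed sequence. The 30 bases around each are shown because these were the only matches among the members, with the match in capitals, at chr11:67583736-67583765 and chr12:16347135-16347164 on the plus strand.
GSTP1: gccggcgccgTGACTCAGCactggggcgga
MGST1: ggggacatcgTGACAAAGCaaattgtctgg

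GSTP1 rose and MGST1 fell, so the 2 genes with a match moved apart. A match is a description of the letters and no measure of binding, and the windows of the other members say only that these letters are not within them.

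GSTK1, the Kappa-class transferase of mitochondria and peroxisomes, lies on chromosome 7 from 143244093 to 143270854. It measured 37.5, 38.0 and 38.5 FPKM in the parental and 59.5, 66.9 and 75.5 FPKM in the adapted samples. All adapted values were above all parental values, and the mean was 1.77 times the parental mean. Its log2 fold change was 0.80 (SE 0.09, limma adjusted p = 0.000263).

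MGST1, a membrane-bound transferase and peroxidase of the endoplasmic reticulum and the outer mitochondrial membrane, lies on chromosome 12 from 16347142 to 16609259. It had the second highest level of the 10 genes in both groups. It measured 273, 264 and 271 FPKM in the parental and 200.4, 223 and 219 FPKM in the adapted samples, with no overlap. MGST1 fell by 0.33 in log2 units (SE 0.07, limma adjusted p = 0.00433), a mean FPKM at 0.794 of the parental mean. After quantile normalization the change was -0.17 and the call was lost (adjusted p = 0.105).

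GSTM3, a Mu-class transferase, spans 109733932 to 109741038 of chromosome 1 (minus strand), where it overlaps GSTM5 and an antisense gene on the other strand. GSTM5 was listed at 0 in all samples. AKR1C2, AKR1C3, MGST1 and GSTK1 also overlap genes of the other strand, MGST1 overlaps AC007552.1 and AC007552.2 on its own strand, and whether the counting used strand is not given in the sources used here. GSTM3 measured 2.88, 5.25 and 3.98 FPKM in the parental and 2.66, 1.91 and 1.71 FPKM in the adapted samples. The groups did not overlap, but adapted replicate 1 was just under parental replicate 1, and the parental spread was the widest of the 8 tested genes on the log2 scale (SD 0.34). GSTM3 fell by 0.69 (SE 0.19, limma adjusted p = 0.0171). The call was lost without parental replicate 2 (log2 fold change -0.52, adjusted p = 0.0515), parental replicate 3 (adjusted p = 0.0517), adapted replicate 2 (adjusted p = 0.0581) or adapted replicate 3 (adjusted p = 0.0595).

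**Figure D2:**
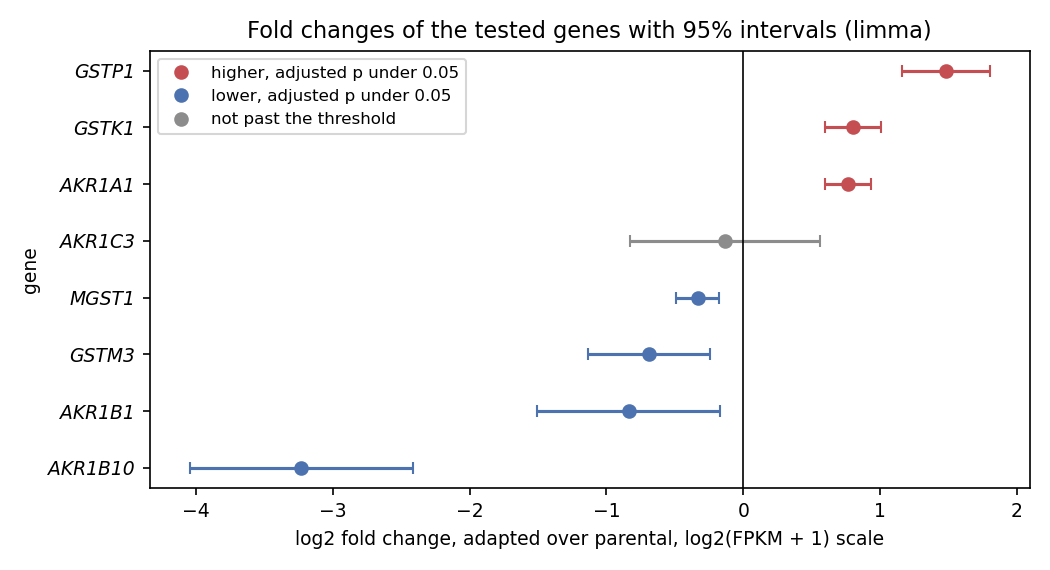
Log2 fold change of the 8 tested genes, adapted over parental, on the log2(FPKM + 1) scale, with 95% intervals from limma, in red where higher and in blue where lower past the threshold and in grey where not. AKR1B10, at -3.23, lies far below the others, the interval of AKR1C3 spans 0, and the intervals of GSTP1, GSTK1 and AKR1A1 lie above 0.5.

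The order of the levels changed with these differences. In parental cells it ran GSTP1 (418 FPKM), MGST1 (269), AKR1B1 (69.9), AKR1A1 (49.4), GSTK1 (38.0), AKR1B10 (14.4), AKR1C3 (9.57), GSTM3 (4.03), AKR1C1 (0.255) and AKR1C2 (0.246), as group means. Only AKR1C1 and AKR1C2 overlapped there among neighbours in the order. In adapted cells it ran GSTP1 (1182 FPKM), MGST1 (214), AKR1A1 (84.9), GSTK1 (67.3), AKR1B1 (41.7), AKR1C3 (9.42), GSTM3 (2.09), AKR1B10 (0.83), AKR1C1 (0.211) and AKR1C2 (0.119). GSTK1 and AKR1B1 overlapped, as did each neighbouring pair from GSTM3 to AKR1C2. AKR1B10 thus moved from the sixth place to the eighth, and AKR1A1 from below AKR1B1 to above it in all 3 adapted samples.

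Summed over family members, the reductases overlapped between the groups and the cytosolic transferases, a sum made mostly of GSTP1, did not. The 14 AKR1 and AKR7 genes summed to 161, 156 and 158 FPKM in the parental and 188, 141 and 128 FPKM in the adapted samples. Adapted replicate 1 was above and adapted replicates 2 and 3 were below the parental sums (two-sided exact permutation test, p = 0.7). Within that sum, AKR1A1 took 29.7% to 32.6% in parental and 46.1% to 63.3% in adapted samples. AKR1B1 took 43.3% to 45.1% in parental and 21.5% to 35.1% in adapted samples, and AKR1B10 8.83% to 9.29% and 0.0929% to 1.11%. The sum of AKR1B1, AKR1B10 and AKR1B15 was 85.0, 82.8 and 85.4 FPKM in the parental and 68.1, 30.6 and 28.9 FPKM in the adapted samples, a ratio of the means of 0.503 with no overlap (exact permutation test, p = 0.1, the smallest possible).

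The 17 cytosolic transferase genes of the Alpha, Mu, Omega, Pi, Theta and Zeta classes summed to 469.5, 476 and 492 FPKM in the parental and 1001, 1400.3 and 1316 FPKM in the adapted samples. Their mean was 2.59 times higher in adapted cells with no overlap (exact permutation test, p = 0.1). GSTP1 alone took 86.7% to 87.8% of this sum in parental and 93.7% to 96.0% in adapted samples. The higher sum is thus mainly the rise of GSTP1 and does not describe the other cytosolic genes. Of the next most abundant, GSTO1 had a mean of 39.8 FPKM in parental and 28.7 in adapted samples, and GSTZ1 13.1 and 18.8. The microsomal genes MGST1, MGST2 and MGST3 summed to 314 to 323 FPKM in parental and 304 to 332 FPKM in adapted samples (exact permutation test, p = 0.8). MGST3, however, is 1 of 147 rows in which all 3 values of 1 group lie off the 6-decimal grid of the other rows, and its adapted values return to the grid when 0.66 is subtracted on the log2 scale. With that constant subtracted the microsomal sum was 269.9 to 298 FPKM in adapted samples, below all parental samples. None of the 10 genes is among these rows. Over the 5 sums compared, the adjusted p (Benjamini-Hochberg over the exact permutation tests) was 0.25 for the AKR1B and the cytosolic transferase sums and 0.8 for the other 3.

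**Figure D3:**
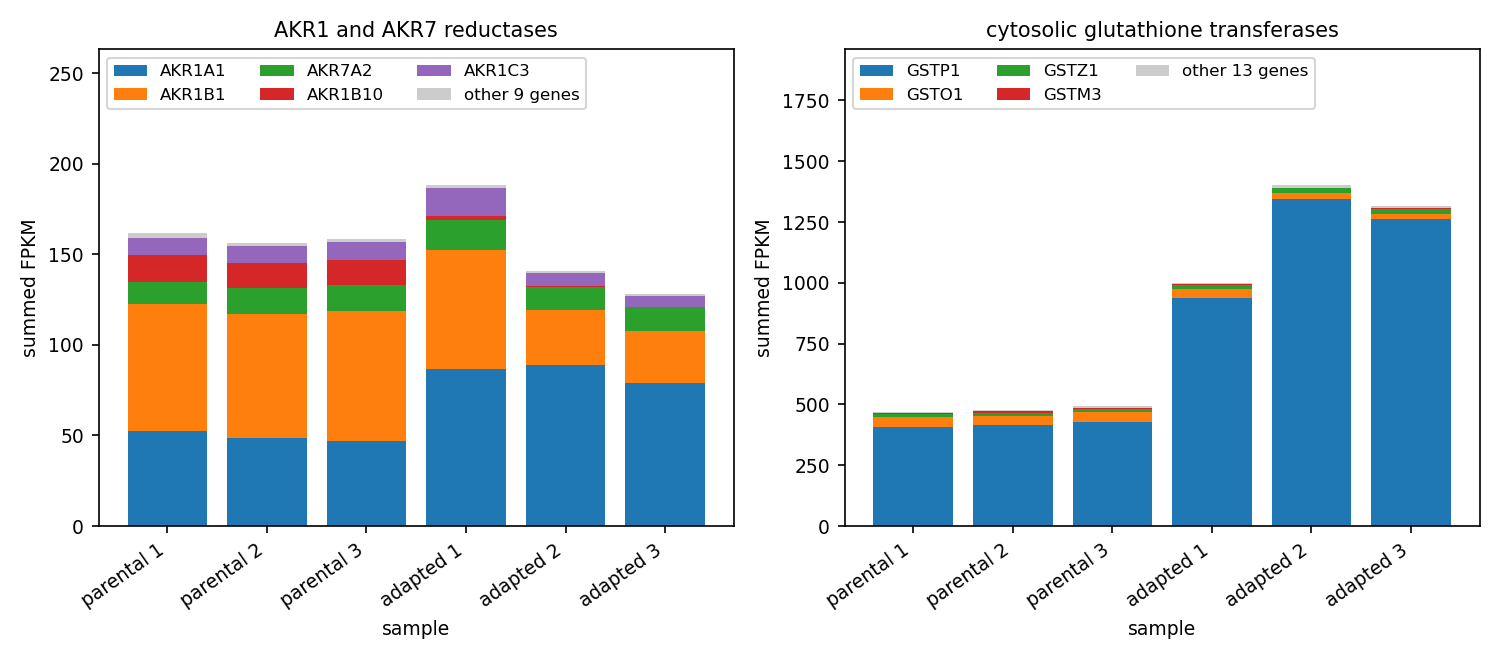
Summed FPKM in each sample, stacked by gene, for the 14 AKR1 and AKR7 reductase genes (left) and the 17 cytosolic glutathione transferase genes (right), both axes starting at 0. The reductase sum stays between 128 and 188 FPKM while AKR1B1 and AKR1B10 shrink and AKR1A1 grows, and the transferase sum is above 1000 FPKM in all adapted samples, nearly all of it GSTP1.

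Most other genes of both families were low. Of 11 other AKR family genes, which include the beta subunits of voltage-gated potassium channels, 8 did not pass the filter and stayed below a log2(FPKM + 1) of 1 in every sample. The 3 tested, AKR7A2, KCNAB2 and KCNAB3, were not past the threshold (log2 fold changes 0.06, 0.14 and -0.08, median 0.06, against a median of 0.03 over all rows tested). Of 24 other transferase and glutathione-binding genes, 23 had a row and 10 were tested, of which 3 rose and 2 fell (50% past the threshold, against 56.9% of all rows, with a median log2 fold change of -0.00042). MGST3, a microsomal transferase and peroxidase, rose by 1.36 as deposited (limma, adjusted p = 1.6e-05) and by 0.70 with the constant subtracted (adjusted p = 0.000284). GSTM4, a Mu-class gene with close relatives among which reads may be split, rose by 0.62 and GSTZ1, an enzyme of tyrosine breakdown, by 0.48. PTGES2, a prostaglandin E synthase, fell by 0.66 and GSTCD, a protein with a transferase-like domain, fell by 0.35 on the log2 scale. GSTO1, the most abundant cytosolic transferase after GSTP1, went from 5.35 to 4.85 and was not past the threshold (limma, adjusted p = 0.0626).

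Genes of glutathione synthesis and recycling supply the substrate of the transferases. Of 26, 22 were tested, of which 4 rose and 6 fell (median log2 fold change -0.12). GSR, which reduces oxidized glutathione, fell by 1.14 in log2 units (limma adjusted p = 1.01e-05), GGT1, which takes extracellular glutathione apart, fell by 1.19, and GLRX, a glutaredoxin, fell by 1.11. GCLC and GCLM, the subunits of the enzyme that limits glutathione synthesis, had log2 fold changes of -0.15 and -0.21 and were not past the threshold. GPX4, the peroxidase of membrane lipids, rose by 1.12 as deposited and by 0.46 with its constant of 0.66 subtracted, GGT7 rose by 0.67 and GPX8 by 0.61. The share past the threshold, 45.5% of those tested, was below that of all rows (56.9%).

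Of 8 exporters of glutathione conjugates and related pumps, 3 rose and 2 fell. ABCC2 fell by 1.41 in log2 units (limma adjusted p = 1.53e-05) and ABCC3 fell by 1.02, while ABCC5 rose by 1.10, ABCC6 by 0.88 and ABCC1 by 0.29. All 8 were tested (62.5% past the threshold, near the 56.9% of all rows), with a median of 0.27.

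Of 32 other known NRF2 targets, 27 were tested, of which 4 rose and 14 fell. This is 66.7% past the threshold, against 56.9% of all rows tested (30.7% higher and 26.2% lower), and the median log2 fold change was -0.38. Whether the list differs from the other rows was not tested. CES1, a carboxylesterase, fell by 2.25 in log2 units (limma adjusted p = 2.76e-06) and passed the filter only through its parental level (mean 2.29, against 0.04 in adapted samples). CYP4F11, which fell by 0.73, also passed only through its parental level (mean 1.39, against 0.66). The counts of this list thus describe the genes that passed. TXNRD1, a thioredoxin reductase, fell by 1.17, and UGDH, which makes UDP-glucuronate, fell by 1.09. ABHD4, a phospholipase, rose by 1.23, HMOX1, which breaks down heme, by 1.09 and TRIM16, a ubiquitin ligase, by 0.68. Of the 15 genes for NRF2 and its regulators, 14 were tested, of which 6 rose and 4 fell (71.4% past the threshold, against 56.9% of all rows, with a median of 0.05). NFE2L2, which encodes NRF2, fell by 0.42 in log2 units (limma adjusted p = 0.00194), and KEAP1, which targets NRF2 for degradation, rose by 0.33 (adjusted p = 0.0249). MAFF, a small MAF partner, fell by 1.94 and BACH1, a repressor of NRF2 targets, fell by 0.77, while DPP3, which binds KEAP1, and CUL3, its ubiquitin ligase scaffold, rose by 0.64 and 0.63 and NFE2L3, a relative of NRF2, by 0.52. 

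Carbonyl reductases outside the AKR family share substrates with it. The list given this name here also holds related dehydrogenases and quinone reductases. All 27 were tested, of which 10 rose and 9 fell (70.4% past the threshold, against 56.9% of all rows, 30.7% higher and 26.2% lower, with a median log2 fold change of -0.06). DHRS9, a retinol dehydrogenase, fell by 1.96 in log2 units (limma adjusted p = 1.47e-05) and also passed the filter only through its parental level (mean 2.06, against 0.10). RDH10, which oxidizes retinol to retinal, fell by 0.78, and CRYZ, a quinone reductase, fell by 0.63. DHRS12 rose by 0.86 and DHRS4, a carbonyl reductase of peroxisomes, by 0.63. HSD17B10, a mitochondrial dehydrogenase, rose by 0.75 as deposited, and with its constant of 0.66 subtracted it was not past the threshold (log2 fold change 0.09, adjusted p = 0.214).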

How the data were processed

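The authors deposited 1 table with 1 log2 value per row and sample, and columns were matched to samples by group and replicate number. The unit is not named. The values were taken as log2(x + 1), because 2 to the power of the value, minus 1, has 6 decimals (within 1e-08) in 27069 of 27216 rows. That x is FPKM is an assumption, since these decimals do not tell FPKM from another scaled unit. The submitters' processing notes name hg38, Bowtie2 2.1.0, STAR and edgeR without roles, and the study's methods name DESeq2, which needs counts. The quantifier and the annotation are not given in the sources used here.

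Rows with a mean of at least 1 were fitted with limma 3.58.1 in R 4.3.3 (lmFit, then eBayes with trend), without pairing. Values of p were adjusted by Benjamini-Hochberg over all rows tested, and 0.05 was the threshold. The fit was tested on simulated data. Sums used linear values and exact permutation tests (scipy 1.17.1). Coding sequences are those of GENCODE 29 transcripts, and promoters are RefSeq's. Genes of each list were named by rule: up to 3 that rose most and 3 that fell most past the threshold without overlap, with NFE2L2 and KEAP1. The 3 rows most like the most changed member were named too, among the rows tested that are not named NewGene_ or as dates. AKR7A2, KCNAB2, KCNAB3, KCNAB1, CD68, PECAM1, COL1A1, COL3A1, CDH5, GSTO1, GCLC, GCLM and CYP4F11 were named after their values were seen. The members and lists were chosen with earlier results of these data known.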

Additional observations from a re-analysis of the deposited data

How the results depend on the processing

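AKR1A1, AKR1B10, GSTP1 and GSTK1 kept their direction and their call under every alternative fit run on them (19 each, and 18 for AKR1B10, which the filter at a mean of at least 3 left out), with log2 fold changes from 0.73 to 0.82, -4.68 to -2.95, 1.38 to 1.64 and 0.72 to 0.89. The -4.68 of AKR1B10 came from a fit on the scale of log2(FPKM + 0.1). Its next lowest value was -3.69, without adapted replicate 1. AKR1C3 was -0.13, was -0.51 and past the threshold without adapted replicate 1, and turned to 0.13 without adapted replicate 3. Read depth is unknown, so it sets no interval here.

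The number of rows past the threshold was 7202, and 4532 with the filter at a mean of at least 3, which left fewer rows. With a log2 fold change of 1 or more in either direction also required, it was 1328 for all rows, 2 for the members, 1 for the other transferases, 4 for the glutathione genes, 5 for the other NRF2 targets, 1 for NRF2 and its regulators, 3 for the exporters and 1 for the carbonyl reductases. These counts use the values as deposited: the 1 other transferase is MGST3, and GPX4 is among the 4 glutathione genes. With the constant of 0.66 subtracted, their log2 fold changes were 0.70 and 0.46, both under 1. The other transferases gave 3 with the filter at 3, and 1 of the other AKR genes was called without a filter, KCNAB1, which was too low to be tested otherwise.

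Leaving out each sample in turn gave 5763 to 8370 rows, 5 to 8 members, 0 other AKR genes, 5 to 8 other transferases (8 without adapted replicate 1), 8 to 12 glutathione genes, 18 to 20 NRF2 targets, 7 to 12 regulators, 5 or 6 exporters, 13 to 23 carbonyl reductases and a summed AKR1C level change of -0.53 to 0.11. The replicate numbers are shared between groups, but same-numbered samples did not deviate together (r = -0.0509, -0.0309 and -0.0203), and the fit with the replicate number as a block changed no call of a member (7 members and 6761 rows past the threshold). No count model was run, since no counts were used here.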
